A study of Mus musculus with 35 samples.

Results

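The mouse miRNAs numbered from miR-680 to miR-721 form a block of names given to candidates reported from mouse tissue at about the same time. Leaving out miR-708, 24 of the 376 miRNA assays on the PCR array carried such a name, and these 24 members were compared with the other 352 assays. The rule uses only the numbers in the names, but this block of names was itself picked with earlier results of these data known. The members were miR-681, miR-683 to miR-688, miR-698 to miR-702, miR-704, miR-705, miR-707, miR-710 to miR-712, miR-714, miR-715 and miR-718 to miR-721.

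The RNA came from the livers of 35 female Big Blue mice, a transgenic line that carries a recoverable bacterial reporter gene for mutation assays. The mice were 6 months old when they received a single intraperitoneal injection of either N-ethyl-N-nitrosourea (ENU), a DNA-alkylating carcinogen, at 120 mg/kg, or the vehicle dimethylsulfoxide (DMSO). The day after treatment is written PTD. ENU-treated livers were collected from 5 mice each on PTDs 1, 3, 7 and 15, and from 4 mice each on PTDs 30 and 120. The 7 DMSO mice formed the control group, 3 of them labelled day 1 and 4 labelled day 30. All mice carried the transgene, and no untreated mice were included in these comparisons. Each mouse was measured on 1 array, and whole liver was used, so fewer cells of a type and less RNA per cell cannot be told apart.

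An miRNA is a short RNA that is cut from a hairpin precursor and pairs with messenger RNAs mainly through its seed, bases 2 to 8 from its 5′ end. Related miRNAs that share a seed are grouped as a family, since the seed largely sets which messengers are bound. A name in this block does not by itself show that the RNA is processed like an miRNA. miR-720 is widely regarded as a fragment of a transfer RNA, and miR-712 has been described as a product of the spacer of the ribosomal RNA precursor.

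Mature sequences from RefSeq (build GRCm38.p6) matched 17 of the 24 names. For 13 of them the table holds a single mature sequence, which was taken as the target of the assay. For miR-698, miR-700, miR-701 and miR-702 it holds both arms of the hairpin, and the array's name does not say which arm was measured. miR-684, miR-685, miR-699, miR-712, miR-714, miR-715 and miR-720 were matched by name only. The sequences printed here are those of members on which the results below turn, with the seed in capitals.
miR-681: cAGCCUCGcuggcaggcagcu
miR-710: cCAAGUCUuggggagaguugag
miR-698-5p: uGUGGGUGggacagggauguu
miR-698-3p: cAUUCUCGuuuccuucccu
miR-700-5p: uAAGGCUCcuuccugugcuugc
miR-700-3p: cACGCGGGaaccgaguccacc
miR-711: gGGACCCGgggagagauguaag
miR-721: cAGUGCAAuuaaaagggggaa

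The 13 members with a single sequence had 13 different seeds, so none of them formed a seed family with another. Of these seeds, 10 occurred in no other of the 1679 mature names in the table. The seed of miR-721 was shared with 6 other mature miRNAs, among them 3 whose names, without the arm, are on the array. They are shown because they differ from miR-721 in the bases after the seed.
miR-130a-3p: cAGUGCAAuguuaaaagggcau
miR-130b-3p: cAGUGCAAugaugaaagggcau
miR-301a-3p: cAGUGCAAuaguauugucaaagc
The GC content of the 13 sequences ranged from 36.4% for miR-719 to 81.0% for miR-718, with a median of 54.5%, beside a median of 52.2% over all mature sequences of the table.

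Several of the members lie inside protein-coding genes. The sequence of miR-681 is at chr12:69763923-69763943 on the minus strand, within the limits of the kinase gene Cdkl1. That of miR-710 is at chr8:64514401-64514422 on the minus strand and lies in no protein-coding gene. miR-711 is at chr9:108969970-108969991 on the plus strand, within the collagen gene Col7a1, and miR-721 is at chr5:136375777-136375797 on the minus strand, within Cux1, which encodes a homeodomain transcription factor. The precursor of miR-698 is at chr4:124743781-124743889 within Inpp5b, and that of miR-700 is at chr4:135416555-135416633 within Rcan3. The name miR-684 has 2 loci, at chr2:80628705-80628790 within the phosphatase gene Dusp19 and at chr4:11134097-11134182 outside protein-coding genes. The table used here gives no strand or exons for the surrounding genes, so only the position within the gene's limits is known.

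Expression was measured as the threshold cycle (Ct), the PCR cycle in which a well becomes bright enough to pass a fixed threshold, and an earlier (lower) Ct stands for more product. It was put on a log2 scale as -ΔCt, the mean Ct of the 4 reference RNAs of the same array minus the Ct of the miRNA. A difference of 1 in -ΔCt is a 2-fold difference. A Ct also depends on how well an assay primes, so the Ct values below rank the readouts of assays and not amounts of RNA. The mean Ct of the reference RNAs ranged from 21.6 on PTD 1 to 22.5 on PTD 15. The liver was readily recognised by its own miRNAs, as miR-122, the most abundant miRNA of hepatocytes, had the lowest Ct of the 376 assays in DMSO mice (14.2). The arrays were run in 3 periods. The first held the 3 DMSO mice of day 1, 4 of the 5 mice of PTD 1 and all mice of PTDs 3, 7 and 15. The second held 2 DMSO mice of day 30, 1 mouse of PTD 1 and all mice of PTDs 30 and 120, and the third held the other 2 DMSO mice of day 30 (replicates 3 and 4) and no ENU mouse. Each array also has 2 control wells for the reverse transcription, which no miRNA enters, and the Ct of the first minus that of the second divided the arrays into 16 with a difference from -0.03 to 0.30 and 19 with a difference from -0.35 to -0.09.

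The members gave late signals in the liver of DMSO mice. Their median Ct was 30.7, while that of the other assays was 28.9. A mean Ct of at most 30 was reached by 10 of the 24 members (41.7%) and by 203 of the other 352 assays (57.7%). No member had a mean Ct of at most 20, the range of 28 other assays, and miR-720 was the only one between 20 and 25. A further 9 members had a mean Ct from 25 to 30, 13 members one from 30 to 35, and miR-721 was above 35.

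miR-720 had the earliest signal among the members, with a mean Ct of 20.4 ± 0.47 (SD, n = 7), and it ranked 33 of 376. It was followed by miR-714 with a mean Ct of 26.0, miR-699 with 26.3, miR-712 with 27.1 and miR-700 with 27.3. Thus more than 5 cycles lay between miR-720 and the next member. The middle of the list was crowded, with miR-715 at a mean Ct of 28.8, miR-718 at 29.1, miR-702 at 29.8, miR-681 at 29.8, miR-705 at 29.9, miR-684 at 30.2 and miR-707 at 30.4. miR-683 had a mean Ct of 31.1, miR-698 one of 31.5, and miR-685, miR-687, miR-704, miR-686, miR-710 and miR-688 followed between 32.2 and 33.0. The last were miR-719 with 33.1, miR-701 with 33.2, miR-711 with 34.1 and miR-721 with 36.6.

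miR-721 had the highest mean Ct of all 376 assays. In the 35 mice its Ct ranged from 35.2 to 39.7, and 1 well, in replicate 4 of PTD 1, gave no Ct within the 40 cycles. In contrast, the assays named for the miRNAs that share its seed had low mean Cts in the same DMSO mice, which were 24.6 for miR-130a, 26.1 for miR-130b and 27.2 for miR-301a. A Ct above 35 was recorded in 75 of the 840 wells of the members (8.93%) and in 437 of the 12320 wells of the other assays (3.55%), and 34 of the 75 were wells of miR-721. The instrument software flagged 15 wells of members (1.79%), 9 of them for miR-721, against 67 wells of the other assays (0.544%). Undetermined wells were few, with 3 among the members and 12 among the other assays.

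**Figure D1:**
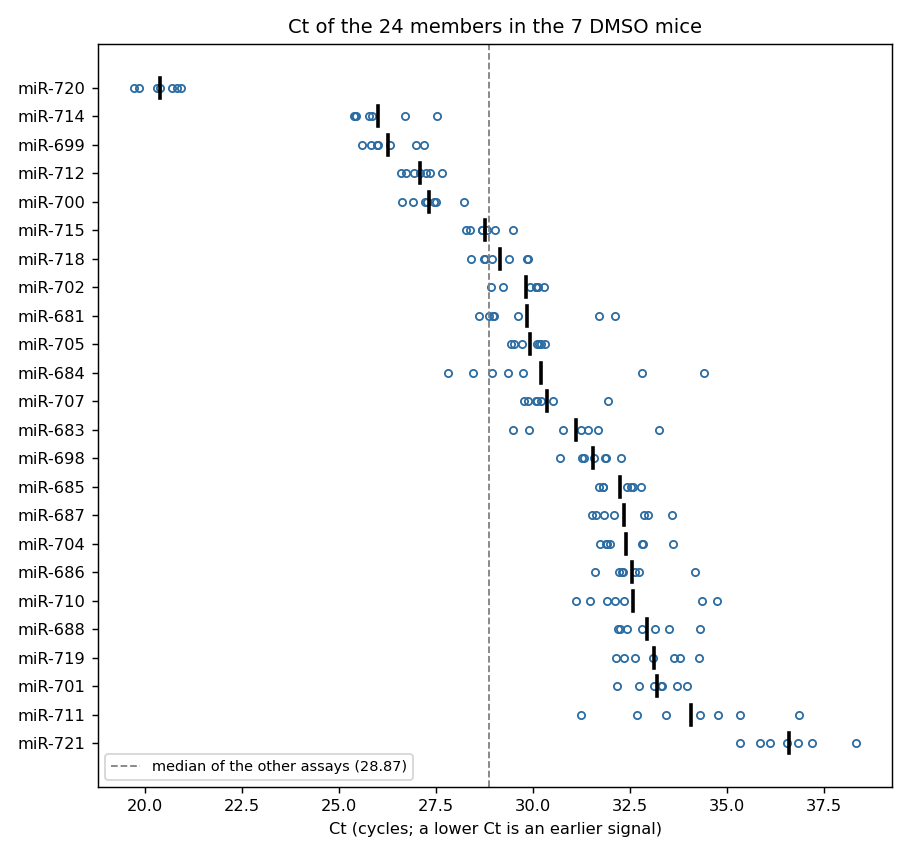
Ct of each of the 24 members in the 7 DMSO mice (open circles, 1 per mouse) with the mean (black bar), in order of the mean. The dashed line is the median of the mean Ct of the other 352 assays, 28.87 cycles, and 14 members have a mean Ct above 30.

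The spread between DMSO mice was described by the SD of -ΔCt. The median SD was 0.87 for the members and 0.83 for the other assays. Late assays varied more, whether or not they were members. Among assays with a mean Ct of at most 30 the median SD was 0.72 for the 10 members and 0.67 for the 203 others, and above 30 it was 1.15 for the 14 members and 1.09 for the 149 others. An SD above 1 was found for 11 members (45.8%) and for 117 other assays (33.2%). These are descriptions of the 2 sets of assays, with no test.

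The members differed greatly among themselves in this spread. miR-711 had an SD of 2.09, the highest of the members and the seventh of all assays, and its DMSO mice spanned a 54.3-fold range. Its signals were late, with a mean Ct of 34.1 in DMSO mice and a Ct above 35 in 12 of its 35 wells over all groups. miR-684 had an SD of 2.03 and a 41.9-fold range, although its mean Ct was near 30, and miR-683 had an SD of 1.67. At the other end, miR-699 had an SD of 0.31 and a 1.66-fold range, and miR-714 an SD of 0.48. miR-721, with the latest signal, had an SD of 1.17, which is not among the highest. The 2 DMSO mice of the third run period had the highest -ΔCt of miR-711 (-10.39 and -8.91, the other 5 from -14.68 to -11.67) and the lowest of miR-684 (-10.53 and -12.09, the other 5 from -8.01 to -6.70). Both also lie among the arrays with a high difference of the reverse transcription control wells, and the part of run period and control wells in this spread was not tested.

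**Figure D2:**
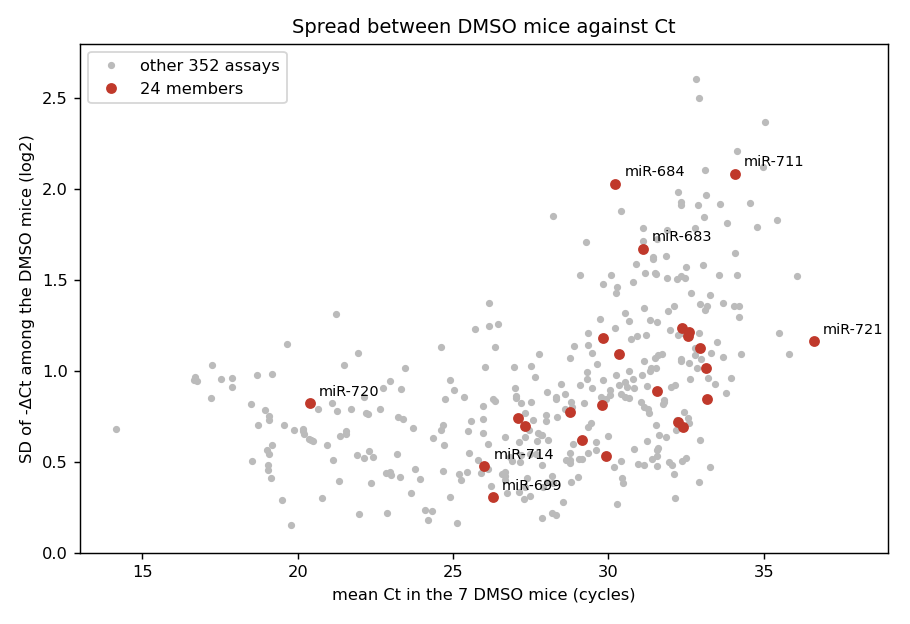
SD of -ΔCt among the 7 DMSO mice (y axis, log2 units) against the mean Ct (x axis, cycles) for the 24 members (red) and the other 352 assays (grey). miR-711 (2.09) and miR-684 (2.03) have the highest SDs of the members and miR-699 (0.31) the lowest.

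To ask which members changed after ENU, each PTD was compared with the 7 DMSO mice in limma. An assay was called where the unadjusted p was under 0.01 and the fold change above 2. On PTD 1, 1 of the 24 members was called (4.17%), beside 1.33% of all 376 assays. The numbers were 1 member (4.17%) beside 2.13% on PTD 3, 3 members (12.5%) beside 9.84% on PTD 7, 2 members (8.33%) beside 11.4% on PTD 15, and 1 member (4.17%) beside 1.6% on PTD 30. On PTD 120 no member was called, beside 1.33% of all assays, and a two-sample test run on the same values also called none. An unadjusted p under 0.05 in limma, at any fold change, was found there for 6 of the 24 members, beside 8.78% of all assays. With an adjusted p under 0.05 and a fold change above 2, the 3 members on PTD 7 (12.5%, beside 7.45% of all assays) and the 2 members on PTD 15 (8.33%, beside 10.4%) were still called. Over the 6 PTDs, 5 members were called at least once (20.8%, beside 17.3% of all assays), namely miR-681, miR-684, miR-698, miR-700 and miR-710. At the unadjusted p under 0.01, each share of called members differed from that of the whole array by less than 1 assay of the 24, and with the adjusted p on PTD 7 by between 1 and 2 assays.

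All members called on PTDs 3, 7 and 15 in this comparison were lower than in DMSO mice. The direction was mixed under other settings. With each array centred on its own median Ct, 4 of the 7 members called on PTD 7 and 4 of the 6 on PTD 15 were higher, and with the controls of the same run period 5 of 8 and 5 of 7 were. A single fit of all 7 groups called 7 members on PTD 15, of which 4 were higher. The members moved in both directions. Their median log2 fold change was -0.14, -0.36, -0.02, 0.36, 0.40 and 0.52 from PTD 1 to PTD 120, while the median of all assays was -0.37, 0.02, 0.19, 0.36, 0.54 and 0.46. These medians depend on the controls. Against period-matched controls, meaning only the DMSO mice of the same run period, the median of all assays was 0.63 on PTD 3, 0.84 on PTD 7 and 1.05 on PTD 15, and 0.04 and -0.02 on PTDs 30 and 120. In the same comparison the median of the members was 0.35 on PTD 3, 0.53 on PTD 7 and 1.09 on PTD 15, and 0.03 and -0.05 on PTDs 30 and 120. The 3 DMSO mice of day 1, which are the only controls of the first run period, had the lowest mean Cts of the reference RNAs among the controls (21.1 to 21.4, the other 4 from 21.7 to 22.3).

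**Figure D3:**
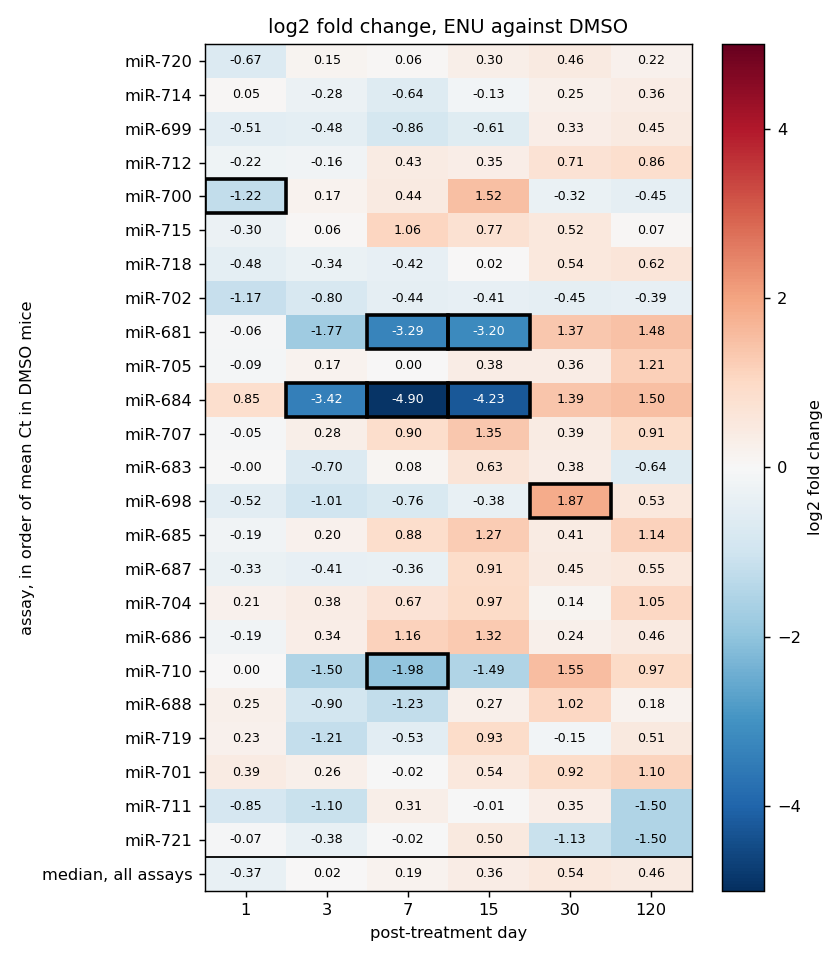
log2 fold change of each member (rows, in order of the mean Ct in DMSO mice) at each PTD (columns) against the 7 DMSO mice, with the value in each cell; the last row is the median of all 376 assays. Boxes mark the 8 called cells, the lowest of which is miR-684 on PTD 7 (-4.90).

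miR-684 showed the largest change of the members. In DMSO mice its -ΔCt was -6.70, -7.59 and -7.17 in replicates 1 to 3 of day 1, and -8.01, -7.19, -10.53 and -12.09 in replicates 1 to 4 of day 30. On PTD 1 the values were -5.47, -8.10, -7.35, -9.61 and -7.56, and on PTD 3 they were -9.35, -9.17, -14.86, -13.13 and -12.95. They ran from -15.01 to -11.00 on PTD 7 (-13.51, -15.01, -13.86, -13.44 and -11.00). On PTD 15 they were -13.46, -12.91, -13.64 and -10.78, with replicate 3 left out of the fit because its well was undetermined. All mice of PTDs 3, 7 and 15 were thus below the 5 DMSO mice with values above -8.1, but the ranges overlapped with the other 2 DMSO mice. On PTD 30 the values returned to -6.25, -7.97, -6.89 and -7.19, and on PTD 120 to -7.37, -6.36, -6.44 and -7.71.

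The log2 fold change of miR-684 was -3.42 on PTD 3 (SE 1.14, adjusted p = 0.351 in limma), -4.90 on PTD 7 (SE 0.93, adjusted p = 0.00474) and -4.23 on PTD 15 (SE 1.00, adjusted p = 0.0195). The exact permutation test, two-sided, gave p = 0.0354, p = 0.00379 and p = 0.0121 for these PTDs. Against the 3 period-matched controls they were larger, at -4.74, -6.21 and -5.54. The size of these values rests on late wells, as the Ct was above 35 in 3 of the 5 wells on PTD 3, 4 of 5 on PTD 7 and 3 of the 4 with a Ct on PTD 15, and in no DMSO well. With every Ct above 35 set to 35 the log2 fold change was -2.92 on PTD 3, not called, and -4.02 on PTD 7 and -3.80 on PTD 15, both called, and with the undetermined well of PTD 15 set to Ct 40 it was -5.21 there. The call on PTD 3 was lost when any one of the 3 DMSO mice of day 1, replicates 1 and 2 of the DMSO mice of day 30 or replicates 3 to 5 of PTD 3 was left out, with log2 fold changes from -3.35 to -2.68. On PTDs 1, 30 and 120 the log2 fold changes were 0.85, 1.39 and 1.50, none of them called.

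miR-681 followed the same course. Its -ΔCt in DMSO mice was -8.52, -7.61 and -7.32 on day 1, and -7.25, -6.68, -9.83 and -9.39 on day 30. On PTD 1 it was -7.00, -7.93, -7.85, -10.33 and -7.62, and on PTD 3 it was -7.91, -7.83, -11.95, -10.87 and -10.70. All 10 mice of PTDs 7 and 15 were below the lowest DMSO mouse, with -11.16, -11.96, -10.97, -11.70 and -11.07 on PTD 7 and -11.27, -10.90, -13.14, -11.08 and -10.05 on PTD 15. The values of PTD 30 (-6.54, -6.72, -6.61 and -7.00) and of PTD 120 (-6.58, -6.29, -6.57 and -6.98) were high, and 5 of these 8 mice were above all DMSO mice.

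The log2 fold change of miR-681 was -3.29 on PTD 7 (SE 0.52, adjusted p = 0.00146 in limma) and -3.20 on PTD 15 (SE 0.62, adjusted p = 0.00723), and the exact permutation test gave p = 0.00252 for both. On PTD 3 it was -1.77 and was not called, but it was in a single fit of all 7 groups (the same value, adjusted p = 0.135) and with run period as a block (-2.61, adjusted p = 0.0202). It was 1.37 on PTD 30 and 1.48 on PTD 120, not called, and against the 2 period-matched controls these values were 0.25 and 0.36.

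miR-710 was the third member that fell on PTD 7. Its -ΔCt in DMSO mice was -10.80, -10.99 and -10.83 on day 1, and -9.74, -8.94, -12.08 and -12.42 on day 30. The mice of PTD 7 had -11.93, -13.51, -13.03, -13.03 and -12.55, of which 4 were below all DMSO mice. On PTD 3 the values were -10.64, -11.62, -13.61, -12.36 and -13.40, and on PTD 15 they were -12.54, -12.96, -11.08, -13.13 and -11.88. On PTD 1 they were -9.75, -10.30, -11.10, -12.31 and -10.67, within the range of the DMSO mice. On PTD 30 (-9.02, -9.03, -9.20 and -9.85) and PTD 120 (-9.27, -9.67, -9.51 and -10.97) they were also within that range. The log2 fold change on PTD 7 was -1.98 (SE 0.55, adjusted p = 0.0444 in limma, p = 0.0114 in the exact permutation test). On PTDs 3 and 15 it was -1.50 and -1.49, not called, but with the same values it was called on both in a single fit of all 7 groups, and with run period as a block it was called at -1.99 on both. On PTD 30 it was 1.55 (adjusted p = 0.435 in limma, p = 0.0576 in the exact permutation test), not called, and 0.06 against the 2 period-matched controls. It was called on PTD 30 with replicate number as a block (1.70, adjusted p = 0.548) and against the DMSO mice of day 1 alone (1.60, adjusted p = 0.0114). The Ct of miR-710 was above 35 in 3 of the 5 wells on each of PTDs 3, 7 and 15 and in no DMSO well.

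**Figure D4:**
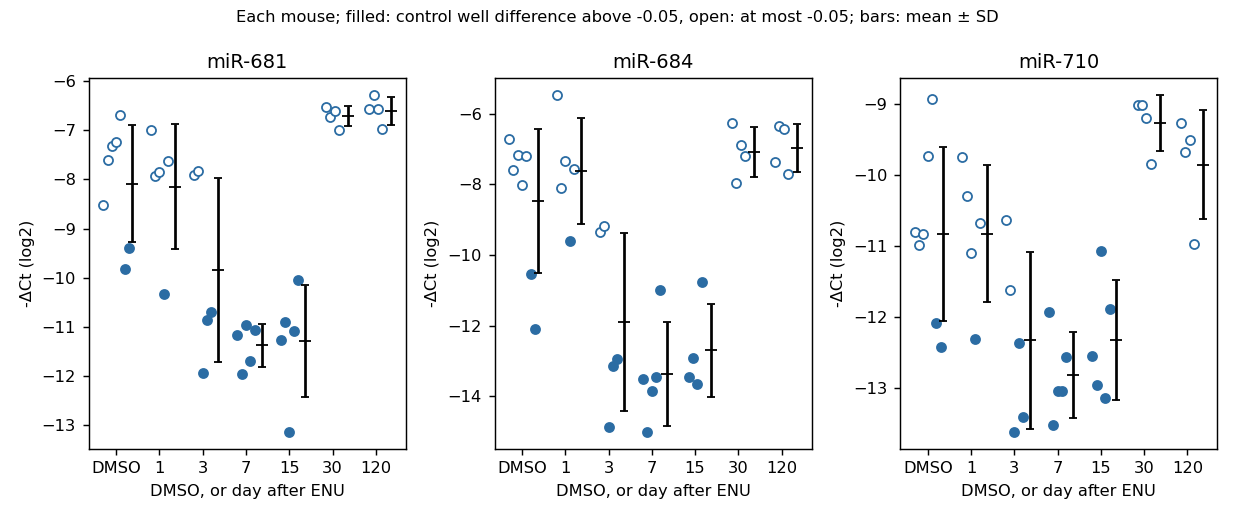
-ΔCt (log2 units) of miR-681, miR-684 and miR-710 in each mouse of the DMSO group and of the 6 PTDs; bars are mean ± SD. Filled circles are the 16 arrays with a difference of the reverse transcription control wells above -0.05, and in miR-681 and miR-684 every filled circle lies below every open one.

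Within groups the values of these 3 members were split by mouse. The low mice in the DMSO group (replicates 3 and 4 of day 30), on PTD 1 (replicate 4) and on PTD 3 (replicates 3 to 5) were the ones whose arrays had a difference of the reverse transcription control wells above -0.05. All 10 arrays of PTDs 7 and 15 were also among these 16 arrays, and all 8 arrays of PTDs 30 and 120 were among the other 19. Over all PTDs miR-681 ranged from -13.14 to -9.39 in the 16 arrays and from -8.52 to -6.29 in the 19. The ranges for miR-684 were -15.01 to -9.61 (15 of the 16 arrays, as 1 well was undetermined) and -9.35 to -5.47. The 2 ranges did not overlap for these 2 members (8.33% of the members), and the same held in this direction for 9 of all 376 assays, or 2.39%. For miR-710 the ranges were -13.61 to -11.08 and -11.62 to -8.94, which overlap.

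The difference was also present within groups. For miR-681 the arrays with the higher control well difference were lower by -2.13 among DMSO mice, by -2.73 on PTD 1 and by -3.30 on PTD 3, as differences of mean -ΔCt. For miR-684 these differences were -3.98, -2.49 and -4.39, and for miR-710 they were -1.99, -1.85 and -1.99. They rest on 2 against 5 arrays in the DMSO group, 1 against 4 on PTD 1 and 3 against 2 on PTD 3. Treatment, day and run period were the same only on PTD 3. The 2 DMSO arrays are both of day 30 and of the third run period, while the other 5 hold all 3 mice of day 1, and the 1 array of PTD 1 was run in the second period and the other 4 in the first. Among the 4 DMSO mice of day 30 alone the differences (2 against 2 arrays) were -2.64 for miR-681, -3.71 for miR-684 and -2.91 for miR-710, again between run periods. The log2 fold changes on PTD 7 beside which they stand were -3.29, -4.90 and -1.98. When the arrays were limited to the 16, which leaves 2 DMSO mice, the log2 fold change on PTD 7 was -1.76 for miR-681 (adjusted p = 0.0536 in limma), -2.06 for miR-684 (adjusted p = 0.265) and -0.56 for miR-710 (adjusted p = 0.539). Of these only miR-681 was called. On PTD 15 it was -1.68 for miR-681 (adjusted p = 0.333) and -1.39 for miR-684 (adjusted p = 0.515), neither of them called. With the control well difference as a covariate the values on PTD 7 were -2.63 for miR-681 (adjusted p = 0.000827), -3.46 for miR-684 (adjusted p = 0.000351) and -1.37 for miR-710 (adjusted p = 0.111, not called). On PTD 15 the covariate fit gave -2.65 for miR-681 (adjusted p = 0.0059) and -3.57 for miR-684 (adjusted p = 0.00795), and on PTD 3 it gave -2.77 for miR-684 (adjusted p = 0.00475), all 3 called. The 2 DMSO mice among the 16 arrays are also the only arrays of the third run period, so that run period and control wells cannot be told apart in them. On PTDs 7 and 15 and on PTDs 30 and 120, day and control wells cannot be told apart.

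**Figure D5:**
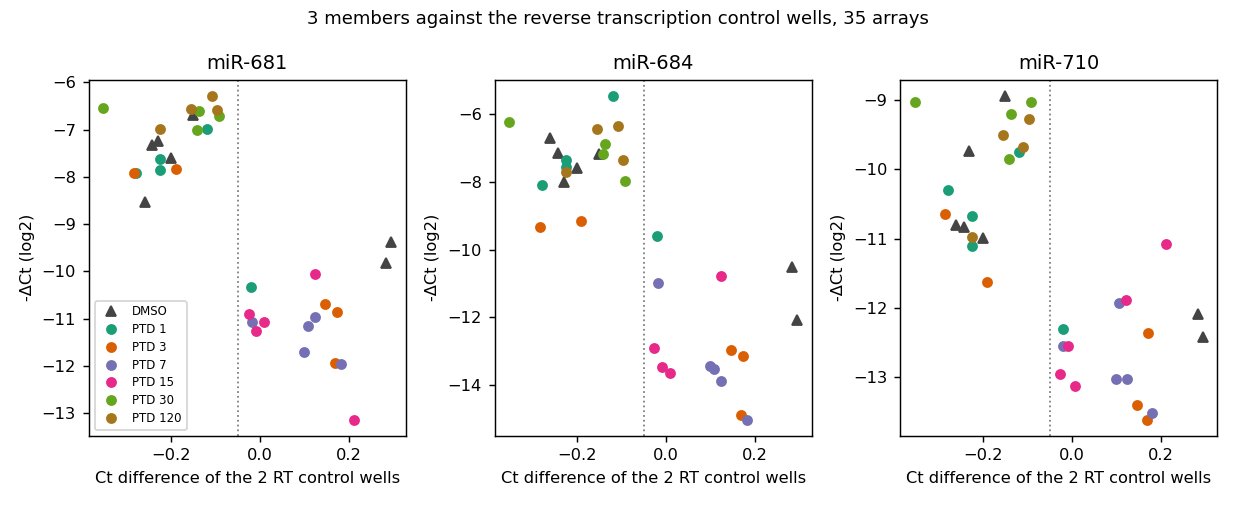
-ΔCt (log2 units) of miR-681, miR-684 and miR-710 against the Ct of the first minus the second reverse transcription control well in the 35 arrays (34 for miR-684); triangles are DMSO mice, circles ENU mice by PTD, and the dotted line is at -0.05. The arrays to the right of the line have values of -9.39 and below for miR-681, and those to the left values of -8.52 and above.

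None of the other members had ranges that were apart between the 16 and the 19 arrays. Over the 21 members without these 3, the median difference was 0.25, and 7 members were lower in the 16 arrays. The median over the assays that are no members was 0.26. Smaller differences in 1 direction did occur. miR-718 was lower in the arrays with the higher control well difference among DMSO mice, on PTD 1 and on PTD 3 (-0.25, -1.82 and -0.60), and miR-686 was higher in each (1.40, 0.98 and 1.02). With miR-681, miR-684 and miR-710 counted in, 4 members were lower in each of these groups, namely these 3 and miR-718. Another 5 members were higher in each. The same count was not made for the other assays, so these numbers have no background to be read against.

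miR-700 was the member called on PTD 1. Its -ΔCt in DMSO mice was -5.81, -5.85 and -5.98 on day 1, and -6.47, -5.27, -5.20 and -4.32 on day 30. On PTD 1 it was -6.44, -7.18, -6.01, -7.47 and -6.80, so that 3 of the 5 mice were below all DMSO mice. The log2 fold change was -1.22 (SE 0.41, adjusted p = 0.669 in limma, p = 0.0101 in the exact permutation test). Within the first run period it was -0.73 (4 mice against 3, p = 0.0571 in the exact permutation test) and was not called. With replicate number as a block it was -1.25 (adjusted p = 0.495) and not called, and miR-702 was called in its place (-1.43). When each mouse was left out in turn, the call was kept only without replicate 3 of the DMSO mice of day 1, replicate 1 of those of day 30 or replicate 3 of PTD 1, and without each of the other 9 mice it was lost, with values from -1.31 to -1.02. On PTD 15 the values were -3.70, -3.07, -6.40, -3.85 and -3.17, and 4 of the 5 mice were above all DMSO mice. Replicate 3 lay among the lowest values of the DMSO mice, and the log2 fold change of 1.52 (SE 0.55, adjusted p = 0.0822) was not called. It was called there in a single fit of all 7 groups (the same value, adjusted p = 0.0149 in limma) and with run period as a block (1.70, adjusted p = 0.00713). The same held with each array centred on its median Ct (1.55, adjusted p = 0.0407) and without snoRNA251 among the reference RNAs (1.68, adjusted p = 0.0375). Against the period-matched controls it was 1.84 and not called. On PTD 3 miR-700 ranged from -5.87 to -5.09, on PTD 7 from -5.79 to -4.36, on PTD 30 from -6.32 to -5.21 and on PTD 120 from -6.98 to -5.27, and it was called at none of these.

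miR-698 was the only member called as higher in the main comparison, with each PTD fitted alone against the 7 DMSO mice. A single fit of all 7 groups called other members as higher on PTDs 15 and 120, and no member on PTD 30. Its -ΔCt in DMSO mice was -10.75, -10.51 and -9.99 on day 1, and -10.53, -9.39, -8.40 and -9.01 on day 30. On PTD 30 it was -6.90, -9.35, -7.67 and -7.80, so that 3 of the 4 mice were above all DMSO mice. The log2 fold change was 1.87 (SE 0.54, adjusted p = 0.407 in limma, p = 0.0121 in the exact permutation test). It was 2.03 against the 2 period-matched controls, not called, and 2.30 (adjusted p = 0.0362 in limma) without the 2 DMSO mice of the third run period. The call was lost without replicate 1 (1.52), replicate 3 (1.78) or replicate 4 (1.82) of PTD 30. On PTD 120 it was 0.53, with values from -10.14 to -8.21. On PTD 3 replicate 5 stood apart with -15.01 (Ct 37.2), while the other 4 mice were between -10.05 and -9.48. On PTDs 1, 7 and 15 the ranges were -11.97 to -8.97, -11.43 to -9.53 and -12.07 to -8.80. On PTD 7 miR-698 was called as lower with the control well difference as a covariate (-1.29, adjusted p = 0.0741 in limma) and on the 16 arrays with the higher difference (-1.86, adjusted p = 0.0918).

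The 3 members with the earliest signals were not called against the 7 DMSO mice. miR-720 had a -ΔCt of 0.39, 0.98 and 0.46 in DMSO mice of day 1, and of 1.89, 1.23, 2.56 and 2.01 in those of day 30. The 2 sets of DMSO mice did not overlap. The mice of PTD 1 had 0.57, 0.17, 0.30, 0.96 and 1.46, and the ranges were 0.87 to 1.87 on PTD 3, 1.07 to 1.60 on PTD 7, 0.86 to 2.38 on PTD 15, 1.58 to 2.32 on PTD 30 and 0.93 to 2.14 on PTD 120. Its log2 fold changes lay between -0.67 on PTD 1 and 0.46 on PTD 30. Against the 3 period-matched controls the value on PTD 7 was 0.82 (p = 0.0179 in the exact permutation test, the smallest that 5 mice against 3 allow), close to the median of 0.84 over all assays in that comparison. Against the 3 DMSO mice of day 1 alone miR-720 was called on PTD 30 (1.21, adjusted p = 0.0187 in limma), where 37.5% of all assays were called.

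miR-714 had a -ΔCt of -4.29, -4.08 and -4.12 in DMSO mice of day 1, and of -4.03, -3.68, -4.40 and -5.21 in those of day 30. Its log2 fold changes ranged from -0.64 on PTD 7 to 0.36 on PTD 120, and none was called. The ENU mice were between -5.38 on PTD 7 and -3.11 on PTD 120. miR-699 had the tightest control values, with -4.73, -4.23 and -4.72 on day 1, and -4.23, -4.14, -4.70 and -4.87 on day 30. On PTD 15 all 5 mice were below all DMSO mice (-4.97, -4.99, -5.79, -4.89 and -4.98), and on PTD 7 this was true of 4 of the 5 (-5.14, -5.48, -6.07, -5.47 and -4.72). The differences were small, with log2 fold changes of -0.86 on PTD 7 (SE 0.29, adjusted p = 0.0881 in limma, p = 0.00505 in the exact permutation test) and -0.61 on PTD 15 (SE 0.27, adjusted p = 0.144, p = 0.00505 in the exact permutation test), and neither reached a fold change of 2. miR-699 ranged from -6.64 to -4.01 on PTD 1, from -5.79 to -4.18 on PTD 3, from -4.39 to -3.97 on PTD 30 and from -4.49 to -3.84 on PTD 120.

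The 3 members with the latest signals gave no calls against the 7 DMSO mice, but each was called under some other setting. miR-721 had a -ΔCt of -16.10, -15.47 and -14.57 in DMSO mice of day 1, and of -14.81, -16.16, -13.04 and -13.79 in those of day 30. Its lowest log2 fold change was -1.50 on PTD 120 (SE 0.63, adjusted p = 0.446 in limma, p = 0.0727 in the exact permutation test), where the values were -17.81, -15.89, -15.60 and -16.10. With each array centred on its own median Ct the value was -1.92, with an unadjusted p under 0.01 (adjusted p = 0.524), so that miR-721 was called on PTD 120 in that setting. miR-711 had a -ΔCt of -13.20, -13.96 and -13.48 in DMSO mice of day 1, and of -11.67, -14.68, -10.39 and -8.91 in those of day 30, and its ENU mice ran from -17.20 on PTD 120 to -9.74 on PTD 7. On the 16 arrays with the higher control well difference, which leave 2 DMSO mice, miR-711 was called on PTD 3 (-4.45, adjusted p = 0.0734 in limma). miR-701 had -12.61, -11.36 and -12.03 on day 1, and -11.39, -11.12, -9.89 and -11.66 on day 30. Its largest log2 fold change was 1.10 on PTD 120 (SE 0.45, adjusted p = 0.446, p = 0.0455 in the exact permutation test), where the mice ranged from -10.70 to -9.84. It was called there with the control well difference as a covariate (1.24, adjusted p = 0.227), on the other 19 arrays (1.36, adjusted p = 0.311) and against the DMSO mice of day 1 alone (1.66, adjusted p = 0.0199), and against the latter also on PTD 30 (1.48, adjusted p = 0.0217).

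None of the other 13 members was called at any PTD in the main comparison, with each PTD fitted alone against the 7 DMSO mice. Their log2 fold changes ranged from -1.23 for miR-688 on PTD 7 to 1.35 for miR-707 on PTD 15. An unadjusted p under 0.05 in limma was found on PTD 15 for miR-685 (1.27), miR-686 (1.32), miR-704 (0.97) and miR-707 (1.35), and on PTD 7 for miR-685 (0.88), miR-686 (1.16) and miR-715 (1.06), all with higher values than in DMSO mice. It was also found for miR-702 on PTD 1 (-1.17) and, on PTD 120, for miR-685 (1.14), miR-704 (1.05) and miR-705 (1.21). The smallest adjusted p among these was 0.0773, for miR-685 on PTD 15. A single fit of all 7 groups, with the same log2 fold changes, called miR-685 (adjusted p = 0.0222 in limma), miR-686 (0.049) and miR-707 (0.0198) on PTD 15. On PTD 120 it called miR-685 (adjusted p = 0.297) and miR-705 (0.265). miR-705 was also called there with the control well difference as a covariate (1.25, adjusted p = 0.227) and without snoRNA251 (1.20, adjusted p = 0.44). Without snoRNA142, miR-702 was called on PTD 1 (-1.30, adjusted p = 0.494).

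More members were called on PTDs 7 and 15 when the controls were limited to the 3 DMSO mice of the same run period. On PTD 7, 8 members were called beside 33% of all assays, and on PTD 15, 7 members beside 40.4%. miR-685, miR-686 and miR-707 were called as higher in both, by 1.53, 2.16 and 1.78 on PTD 7 and by 1.92, 2.32 and 2.24 on PTD 15 on the log2 scale. The median of all assays was 0.84 and 1.05 in these comparisons. miR-712 and miR-715 were further calls on PTD 7, and miR-687 and miR-719 on PTD 15, and all 4 were higher. miR-681 and miR-684 were lower in both and miR-710 on PTD 7. With each array centred on its own median Ct, miR-685, miR-686 and miR-707 were likewise called as higher on PTDs 7 and 15, with log2 fold changes from 1.18 to 1.46.

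The time course was also compared directly between the 10 mice of PTDs 7 and 15 and the 8 mice of PTDs 30 and 120. Here 7 members were called (5 lower and 2 higher on PTDs 7 and 15), beside 24.7% of all assays. miR-684 was lower by -6.01 (SE 0.50, adjusted p = 6e-08 in limma), miR-681 by -4.67 (SE 0.31) and miR-710 by -3.00 (SE 0.31, adjusted p = 5.2e-07). None of the values of these 3 members on PTDs 7 and 15 reached the lowest value on PTDs 30 and 120. miR-698 differed by -1.77 (SE 0.46, adjusted p = 0.0048) and miR-699 by -1.12 (SE 0.20, adjusted p = 0.000251). miR-721 was higher by 1.56 (SE 0.31, adjusted p = 0.000631) and miR-700 by 1.37 (SE 0.39, adjusted p = 0.00987). All arrays of PTDs 7 and 15 were run in the first period and all arrays of PTDs 30 and 120 in the second, so that in this comparison day and run period cannot be told apart. In a fit of all groups with run period as a block, which rests on the DMSO and PTD 1 mice shared between periods, 5 members were called, beside 16% of all assays. miR-681 (-5.25), miR-684 (-7.27) and miR-710 (-2.82) were among them, with miR-686 (2.18) and miR-683 (2.70), while miR-698 (-1.47, SE 1.05), miR-699 (-0.75, SE 0.47), miR-700 (1.03, SE 0.60) and miR-721 (1.45, SE 0.89) were not called. The SEs of these 4 were larger than in the direct comparison, and their directions were the same.

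Members also varied together among mice of the same group. Across the 35 mice, after the mean of each group was taken away, the highest correlation between 2 members was r = 0.84 for miR-681 with miR-684, followed by 0.80 for miR-686 with miR-712 and 0.76 for miR-684 with miR-710. The seeds of miR-681 and miR-710, printed above, differ. The points share the 4 reference RNAs of each array, and these values are descriptions. The correlations among miR-681, miR-684 and miR-710 moved with the 6 arrays of the DMSO group, PTD 1 and PTD 3 with the higher control well difference. Without these arrays, which leaves 29, r was 0.48 for miR-681 with miR-684 and 0.38 for miR-684 with miR-710, while for miR-686 with miR-712 it was 0.78. These pairs were picked for their high r in the 35 mice. Other pairs rose, such as miR-681 with miR-715 from 0.26 to 0.77 and miR-687 with miR-710 from 0.08 to 0.72. The highest without the 6 arrays was miR-686 with miR-718, from 0.33 to 0.83. Pairs of the other assays were not correlated for comparison.

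For comparison, lists of miRNAs known from liver and from other cell types were read in the same mice. The 3 liver miRNAs miR-122, miR-192 and miR-194 had mean Cts from 14.2 to 17.2 in DMSO mice, and none of them was called at any PTD. Of 13 miRNAs from clusters known from embryonic stem cells, the median Ct was 32.3, near that of the later members, 1 had a mean Ct of at most 30, and 2 were called at 1 or more PTDs (17.3% of all assays were). These were miR-292-5p, with log2 fold changes of -2.20 on PTD 7 and -2.32 on PTD 15, and miR-302c*, with -2.33 on PTD 3, -3.51 on PTD 7 and -3.74 on PTD 15. The 2 erythroid miRNAs miR-144 and miR-451 had a median Ct of 23.4 and were both called as higher on PTD 15 only (1.52 and 1.04). Of 5 leukocyte miRNAs, with a median of 24.3, 2 were called, namely miR-150 as lower on PTD 1 (-1.72) and miR-142-3p as higher on PTD 120 (1.35). The 3 muscle miRNAs had a median Ct of 32.2, the 2 neural ones 31.4 and the 2 endothelial ones 18.5, and none of these was called. The part of any cell type in the values of the members was not tested.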

How the data were processed

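Small RNA was measured in the livers of 35 mice on 1 real-time PCR array each. The authors deposited the Ct of every well in cycles, which is already a log2 scale, calculated with SDS 2.3 at a fixed threshold and not normalized. Assay names came from the name column of the study's table. Groups followed the labels; the labels give 3 DMSO mice of day 1 and 4 of day 30 where the methods give 4 and 3, so all 7 were pooled as in the study. From the files, -ΔCt was computed against the mean of snoRNA251, snoRNA202, snoRNA142 and U6. Undetermined wells were treated as missing. Each PTD was fitted against the 7 controls with limma 3.58.1 in R 4.3.3 over all 376 assays, with Benjamini-Hochberg adjustment; single members were also tested with a two-sided exact permutation test. The fit was tested on simulated data. Per-mouse values are given for members called at any PTD and for the 3 with the lowest and the 3 with the highest mean Ct in DMSO mice; 13 others were summarised. The number of arrays and a Ct near 40, where wells flag often, limit the precision.

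The members and the lists of cell type miRNAs (liver, embryonic stem cell clusters, erythroid, leukocyte, muscle, neural and endothelial) were chosen with earlier results of these data known. Run periods came from the arrays' run records. Alternatives were other normalizations, other handling of late wells, other controls, run period or replicate number as a block, the difference of the reverse transcription control wells as a covariate, each mouse left out, and, chosen after seeing the data, only the arrays above or at most -0.05 in that difference, a filter on the mean Ct in DMSO mice, and correlations without 6 arrays.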

Additional observations from a re-analysis of the deposited data

Results flagged for a closer look

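Single mice stood apart from the others of their group for 9 of the 168 combinations of a member and a group (24 members, 7 groups), where chance alone marks about 1 in 20. miR-681 had a -ΔCt of -10.33 in replicate 4 of PTD 1, below the other 4 mice (-7.93 to -7.00). This mouse was the only one of PTD 1 run in the second period and the only one with a difference of the reverse transcription control wells above -0.05. Replicate 3 of PTD 15 was the lowest of its group for miR-699 (-5.79, the others -4.99 to -4.89), for miR-700 (-6.40, the others -3.85 to -3.07) and for miR-701 (-12.10, the others -10.88 to -10.43), and its wells of miR-684 and miR-719 gave no Ct. miR-698 had -15.01 in replicate 5 of PTD 3, while the others had -10.05 to -9.48. miR-712 was high in replicate 4 of PTD 3 (-4.75, the others -5.83 to -5.53) and low in replicate 4 of PTD 30 (-5.03, the others -4.49 to -4.47). miR-685 was low in replicate 4 of PTD 30 (-10.44, the others -9.98 to -9.91), and miR-718 in replicate 3 of PTD 3 (-8.90, the others -7.58 to -7.20).

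In a direct limma contrast, which holds no DMSO mice, 7 members differed between the 10 mice of PTDs 7 and 15 and the 8 mice of PTDs 30 and 120, beside 24.7% of all assays. The log2 differences were -6.01 for miR-684, -4.67 for miR-681, -3.00 for miR-710, -1.77 for miR-698, -1.12 for miR-699, 1.37 for miR-700 and 1.56 for miR-721. Day, run period and the difference of the reverse transcription control wells cannot be told apart in this contrast. In the fit of all groups with run period as a block, miR-698 (-1.47, SE 1.05), miR-699 (-0.75, SE 0.47), miR-700 (1.03, SE 0.60) and miR-721 (1.45, SE 0.89) were not called.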

How the results depend on the processing

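The calls rest on few mice and moved with the controls. From PTD 1 to PTD 120 the members called were 1, 1, 3, 2, 1 and 0. With each array centred on its median Ct they were 0, 0, 7, 6, 1 and 1 (18.1% and 14.6% of all assays on PTDs 7 and 15), and the median log2 fold change of the members on PTD 30 became -0.0032. Without snoRNA251 among the reference RNAs, 0 members were called on PTD 1, 5 on PTD 15 and 1 on PTD 120 (1.06%, 16.2% and 1.6% of all assays). Without snoRNA202, 0 were called on PTDs 1 and 3, beside 0.798% and 2.66% of all assays. Without snoRNA142, 2 were called on PTD 1, beside 1.6%, and without U6, 0 on PTD 3, beside 1.86%. With Ct above 35 set to 35, 0 were called on PTD 3, beside 1.86% of all assays. With only assays of mean Ct at most 30 over all 35 mice, 8 members were left. Of these, 0 were called on PTDs 3, 7, 15 and 30, beside 3.41%, 5.37%, 11.7% and 1.95% of the assays left, and 1 on PTD 120, beside 3.41%. As the mean holds the ENU mice, this leaves out miR-681 and miR-702, which reach it in DMSO mice, and the lost calls come from fewer members tested. With the mean taken over DMSO mice, chosen after seeing the data, 10 members were left. Of these, 2 were called on PTD 1, beside 2.82% of the 213 assays left, and 0 on PTDs 3 and 30, beside 3.29% and 2.35%. On PTDs 7 and 15, 1 was called on each (miR-681 on both), beside 7.51% and 12.7%, and 1 on PTD 120, beside 3.76%. With controls of day 1 only, the calls were 0 on PTD 1, 8 on PTD 7, 7 on PTD 15, 9 on PTD 30 and 6 on PTD 120 (33.0%, 40.4%, 37.5% and 27.9% of all assays), and the medians were 0.40, 0.35, 0.53, 1.09, 1.16 and 1.08 from PTD 1 to PTD 120. With controls of day 30 only, 1 was called on PTD 15 (9.04% of all assays) and 0 on PTD 30, and the medians were -0.69 on PTD 1, -0.59 on PTD 7 and -0.0515 on PTD 30. Within the same run period, the calls were 0 on PTDs 1 and 30, beside 1.06% and 0.798% of all assays. They were 8 on PTD 7 and 7 on PTD 15, beside 33.0% and 40.4%, and the medians were 0.41, 0.35, 0.53, 1.09, 0.0317 and -0.0462. With run period as a block, 0 were called on PTDs 1 and 30, 3 on PTD 3, 8 on PTD 7 and 9 on PTD 15 (14.9%, 30.3% and 36.2% of all assays), with medians of 0.57 on PTD 7 and 0.99 on PTD 15. With 1 fit of all 7 groups, 3 were called on PTD 3, 7 on PTD 15, 0 on PTD 30 and 2 on PTD 120 (4.79%, 13.3%, 1.86% and 3.19% of all assays). With the control well difference as a covariate, 0 were called on PTD 1 and 2 on PTD 120 (4.26% of all assays). The methods' t-test called 0 on PTDs 3 and 30, and the adjusted p rule 0 on PTDs 1, 3 and 30. On the arrays above -0.05 in control well difference, an alternative chosen after seeing the data, 0 members were called on PTD 15, beside 7.45% of all assays. The median on PTD 7 was -0.64. On the arrays at most -0.05, 0 were called on PTD 1 and 1 on PTD 120, beside 0.266% and 2.39%, and the median on PTD 30 was 0.68. The cause of these shifts was not tested.

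When each mouse was left out in turn, the calls ranged from 0 to 1 on PTDs 1 and 3, 3 to 4 on PTD 7, 2 to 4 on PTD 15, and 0 to 2 on PTDs 30 and 120. The medians ranged from -0.38 to -0.05 on PTD 1, -0.50 to -0.09 on PTD 3, -0.28 to 0.14 on PTD 7, 0.16 to 0.50 on PTD 15, 0.25 to 0.60 on PTD 30 and 0.39 to 0.72 on PTD 120. The direct contrast called 7 to 8 members, 8 to 11 members had a mean Ct of at most 30, and the median SD was 0.75 to 0.92. With controls of day 30 only, miR-684 on PTD 15 (-3.25), miR-710 on PTD 7 (-2.02), miR-684 on PTD 3 (-2.44), miR-698 on PTD 30 (1.40) and miR-700 on PTD 1 (-1.47) were not called. No named call reversed under any alternative run. miR-681 and miR-684 on PTDs 7 and 15 and miR-710 on PTD 7 kept their calls without each of the 12 mice. miR-684 on PTD 3 kept it in 4 of 12 (from -4.11 to -2.68), miR-700 on PTD 1 in 3 of 12 (from -1.41 to -1.02) and miR-698 on PTD 30 in 8 of 11 (from 1.52 to 2.34).

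The labels number the mice of every group, but these are different mice. In 42 same-numbered pairs the correlation of deviations ranged from -0.30 to 0.52 and was above 0.1 in 11. For no PTD was it above 0.1 in every pair with the 7 controls, so the numbers were not taken as pairs. On PTD 3 all 4 pairs with the DMSO mice of day 30 were above 0.1 (0.18 to 0.49), where replicates 3 and 4 of both groups are also arrays of high control well difference. With a replicate block, 2 members were called on PTD 30, beside 1.6% of all assays. The counts at the other PTDs did not change, beside 1.33% of all assays on PTDs 1 and 3, 7.71% on PTD 7 and 7.18% on PTD 15. On PTD 1, however, the called member was miR-702 (-1.43) and no longer miR-700 (-1.25). In the direct contrast 7 members differed, as many as without the block.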
